A study of Mus musculus with 4 samples.

Results

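The subject of this account is a group of 9 genes that encode the enzymes by which cells consume the amino acid tryptophan, namely Ido1, Ido2, Tdo2, Afmid, Kmo, Kynu, Haao, Il4i1 and Wars. The members were chosen by name, and all 9 were found among the 54532 genes of the count table. They were measured by bulk RNA-seq of alveolar macrophages (AMs), which live in the airspace of the lung. The 4 libraries came from female WT mice, which by the methods were of BALB/c background and 8 to 10 weeks old. Control mice received no 4T1 inoculation and gave 2 libraries. Tumor mice carried a primary 4T1 tumor for 2 weeks and gave the other 2 libraries. 4T1 is a mouse mammary carcinoma line, placed here in the mammary fat pad, from which it spreads to the lung. AMs isolated from such mice for microscopy were CD45+ CD11b- CD11c+ SiglecF+ cells. The methods do not spell out the gate for the sequenced cells, though the text speaks of both uses together. That gate is meant to leave out cells without CD45, such as hepatocytes, and cells with CD11b, such as granulocytes. Markers of both were nonetheless present in the tumor libraries, as given below. Whether the sequenced cells met this gate was not tested. Whether a library came from a single mouse or from pooled mice is not given in the sources used here, so the p-values measure only the spread between these libraries, which may be technical.

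Tryptophan is opened by a dioxygenase, IDO1, IDO2 or TDO2, to N-formylkynurenine, which the formamidase AFMID turns into kynurenine. Kynurenine can be hydroxylated by KMO, cleaved by KYNU or transaminated to kynurenic acid, and HAAO oxidises the cleavage product of the KMO branch on the way to quinolinate and NAD. IL4I1 is a secreted oxidase that yields indole metabolites, and WARS loads tryptophan onto its tRNA for protein synthesis. Kynurenine, kynurenic acid and the indoles are ligands of the aryl hydrocarbon receptor (AHR), the transcription factor that the series set out to study, and tryptophan use by IDO1 is known to restrain T cells. In healthy mammals TDO2 is known chiefly from the liver, where most of these enzymes are also made, and IDO1 from dendritic cells and macrophages exposed to interferon-gamma.

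Libraries held between 16167147 and 19205737 counts, and mitochondrial genes held between 1.62% and 1.81% of them. Levels are given in CPM, the usual depth-scaled count, with library sizes adjusted by TMM so that most genes balance between libraries. A count of 3 or fewer was read as the floor, which was 0.153 to 0.190 CPM and covers counting error only. Differences were tested with edgeR's quasi-likelihood test over all 14256 genes with enough counts, and a gene was called at a Benjamini-Hochberg adjusted p under 0.05. By that rule 53.8% of all tested genes were called, 29.0% of all tested genes higher and 24.8% lower in the tumor libraries, so a call alone was common here. Of the 12 AM marker genes all were detected in every library, and their summed level ran from 14582 to 14692 CPM in the controls and from 10351 to 10524 CPM in the tumor libraries. Chil3 and Mrc1 were the largest parts of that sum. All 12 were called lower, but unequally, with log2 fold changes from -0.16 for Siglecf to -2.13 for Fabp4. Scaling on these markers, used below, takes the middle of their ratios. Markers of hepatocytes and of granulocytes were also present in the tumor libraries and far lower in the controls, and their values are given beside the results they move with. All 10 hepatocyte markers were at the floor in both controls. Only 5 of 10 neutrophil markers were, and S100a8 had 75 and 60 control counts. In bulk samples fewer cells of a type and less RNA per cell cannot be told apart.

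The 9 genes did not move as a group. Tdo2, Kmo and Haao were higher in the tumor libraries, Kynu and Afmid were modestly lower, Wars did not pass the test, and Ido1, Ido2 and Il4i1 had too few counts to be tested. Thus 6 of 9 passed the filter on low counts. Tdo2 and Kmo had fewer than 10 counts in 1 control library each and passed it through their tumor libraries, so the number called among the 6 is not read as a result about the group. The 3 rises were each at least 2-fold, a size that 12.9% of all tested genes reached upward and 3.01% downward, and neither fall was.

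**Figure D1:**
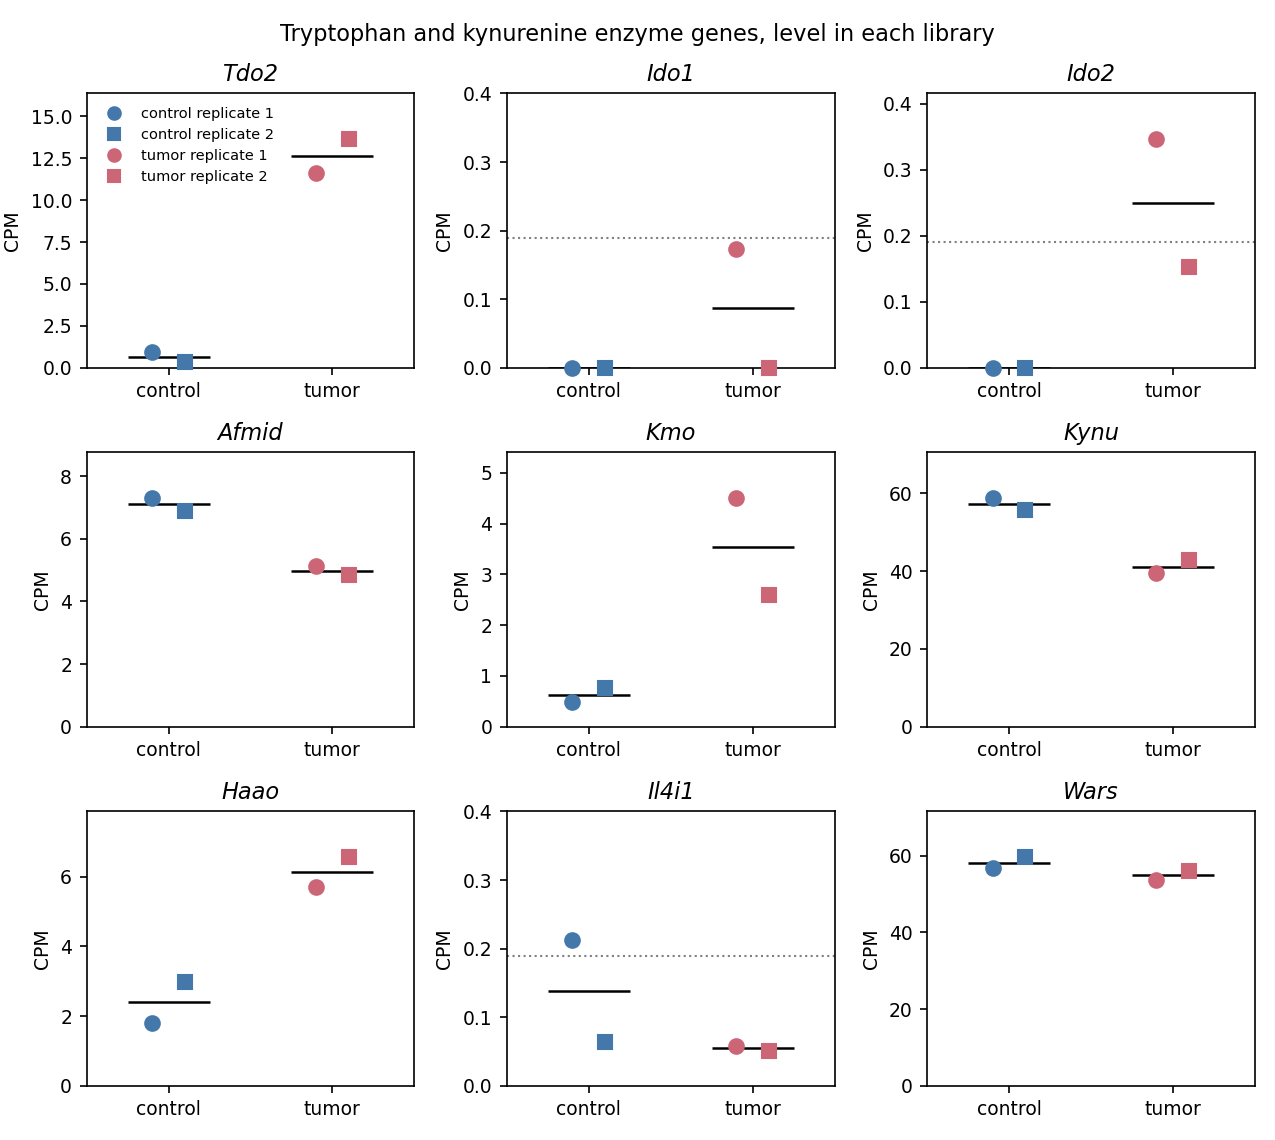
Level of each of the 9 genes in CPM (vertical axis, from 0, own scale per panel) in the 2 control and 2 tumor libraries; points are libraries, black bars are group means, and the dotted line in the panels of Ido1, Ido2 and Il4i1 marks 3 counts in the shallowest library, 0.190 CPM. Tumor points lie above both control points for Tdo2, Kmo, Haao and Ido2 and below them for Kynu, Afmid, Wars and Il4i1. Of these, Wars did not pass the test, and Ido2 and Il4i1 had too few counts to be tested. How many of all genes separate in this way was not computed, so separation alone is not read as a result.

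Among the dioxygenase genes that start the pathway, Tdo2 was far more abundant with a tumor and held nearly all their counts there. Tdo2 (ENSMUSG00000028011, minus strand of chromosome 3, 81957090 to 81976202, GRCm38) rose from 17 and 5 counts in the control libraries to 202 and 268 with tumor. These counts correspond to 0.906 and 0.316 CPM without and to 11.6 and 13.6 CPM with a tumor. The groups did not overlap, and the control libraries differed from each other more, in proportion, than the tumor libraries did. By edgeR its log2 fold change was 4.30 (SE 0.260, adjusted p = 3.36e-14). Control replicate 1 held most of the control counts, and without it the log2 fold change was 5.28, against 3.78 without control replicate 2.

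Hepatocyte markers moved with Tdo2. Of 10 such markers, 9 had 0 counts in both controls, and Apoa1 had 1 and 3. All 10 were higher in the tumor libraries, and their summed level went from 0.0533 and 0.190 CPM to 675.9 and 678.7 CPM. Their part in the Tdo2 values was not tested.

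Ido1 and Ido2, paralogs that lie 7802 bases apart on chromosome 8, were at or close to the floor. Ido1 (ENSMUSG00000031551, 24584136 to 24597009, minus strand) had 0 counts in 3 libraries and 3 counts in tumor replicate 1. Ido2 (ENSMUSG00000031549, 24531892 to 24576333, minus strand) was not detected in either control library (0 counts) and had 6 and 3 counts with tumor. Neither transcript was detectable in the controls at this depth, and no fold change is given. Tdo2 therefore supplied 202 of the 211 counts of the 3 dioxygenase genes in tumor replicate 1 (95.7%, Clopper-Pearson 95% interval 92.1% to 98.0%). In tumor replicate 2 it supplied 268 of 271 counts (98.9%, 96.8% to 99.8%), and in the controls all 17 and all 5, which allows shares from 80.5% and from 47.8% upward. These intervals cover counting error only, and 5 counts leave the share in control replicate 2 poorly known. The level of Tdo2 was 19.8-fold higher with a tumor by the fitted value.

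The second enzyme moved the other way. Afmid (ENSMUSG00000017718, plus strand of chromosome 11, 117825924 to 117839908), the formamidase that releases kynurenine, had 137 and 109 counts in the controls, against 89 and 95 with tumor. Levels were 7.30 and 6.90 CPM against 5.13 and 4.84 CPM, so that both tumor values lay under both control values. By edgeR its log2 fold change was -0.51 (SE 0.175, adjusted p = 0.0151). Hence the decrease was small beside the rise of Tdo2. Without control replicate 1 the adjusted p was 0.0918 at a log2 fold change of -0.48, and with the DESeq2 Wald test it was 0.113. Over all alternatives it ran from 0.0120 to 0.926, the latter under scaling on AM markers. Of the exonic bases that GENCODE release M21 gives Afmid, 46.6% also belong to exons of other genes, chiefly the read-through gene Gm20708, which had 0 counts in all 4 libraries. How the counting treated such shared bases is not stated, and the part of this overlap in the Afmid values was not tested.

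Beyond kynurenine, the hydroxylase and the dioxygenase of the branch toward NAD were higher, whereas the cleaving enzyme between them was lower. Kmo (ENSMUSG00000039783, plus strand of chromosome 1, 175620381 to 175662116) had 9 and 12 counts in the controls and 78 and 51 in the tumor libraries, or 0.480 and 0.759 CPM against 4.50 and 2.60 CPM. The tumor libraries were the higher pair, though they differed from each other by more than the control libraries did. By edgeR its log2 fold change was 2.52 (SE 0.370, adjusted p = 1.49e-06).

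Haao (ENSMUSG00000000673, minus strand of chromosome 17, 83831356 to 83846790), which encodes the enzyme that makes the precursor of quinolinate, went from 34 and 47 counts in the controls to 99 and 129 with tumor. Levels were 1.81 and 2.97 CPM against 5.71 and 6.57 CPM, without overlap. By edgeR its log2 fold change was 1.38 (SE 0.230, adjusted p = 9.89e-06). It ranged from 1.04 without control replicate 1 to 1.74 without control replicate 2.

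Kynu (ENSMUSG00000026866, plus strand of chromosome 2, 43555329 to 43682715) encodes the hydrolase that cleaves kynurenine and was, per length, second to Wars among the 9 in both groups. It had 1102 and 878 counts in the controls and 686 and 840 in the tumor libraries, or 58.7 and 55.6 CPM against 39.6 and 42.8 CPM. Both tumor values lay below both control values in CPM. By edgeR its log2 fold change was -0.47 (SE 0.0674, adjusted p = 9.33e-07). This fall and that of Afmid are relative to TMM scaling. When libraries were scaled on the AM marker genes instead, which moved the middle of all log2 fold changes from 0.02 to 0.51, Kynu was at 0.021 and Afmid at -0.02, and neither was called.

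Per kilobase of gene, the excess of Kynu over Kmo and Haao narrowed. The ratio of Kynu to Kmo reads per length was 94.1 and 56.2 without a tumor and 6.76 and 12.7 with a tumor. The ratio of Kynu to Haao was 6.44 and 3.71 in the controls and 1.38 and 1.29 in the tumor libraries. These ratios are within a library and do not depend on how libraries were scaled. They do depend on the gene lengths, although the change between groups does not.

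Of the 2 tryptophan consumers outside the kynurenine route, Il4i1 had too few counts to be tested and Wars did not pass the test under TMM scaling. Il4i1 (ENSMUSG00000074141, plus strand of chromosome 7, 44816387 to 44840809) had 4 and 1 counts in the controls and 1 count in each tumor library. This low count is hard to read, because 86.3% of the exonic bases of Il4i1 in GENCODE M21 also belong to exons of other genes, 3423 bases of them to Tbc1d17 on the opposite strand. Tbc1d17 itself had between 404 and 766 counts per library. If reads that lie in 2 genes were set aside, which the sources used here do not state, most of an Il4i1 transcript could not be counted, so the values do not show that the gene was silent.

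Wars (ENSMUSG00000021266, minus strand of chromosome 12, 108860030 to 108894174) was, per length, the most abundant of the 9. It had 1064 and 942 counts in the controls, against 932 and 1100 with tumor. Levels were 56.7 and 59.6 CPM against 53.8 and 56.0 CPM, with the tumor values just under the control values. By edgeR its log2 fold change was -0.08 (SE 0.0614, adjusted p = 0.277). Scaling on the AM markers turned it to 0.41, with an adjusted p of 6.04e-07, while under the other alternatives the adjusted p lay between 0.172 and 0.855.

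Levels can be compared between genes only per length, and this order changed between the groups. In the controls Wars came first at 16.9 ± 0.599 CPM per kilobase and Kynu next at 9.29 ± 0.363 (SD, n = 2 here and below). Afmid at 2.01 ± 0.0803 and Haao at 1.96 ± 0.673 followed and did not differ beyond their spread with the gene lengths of the deposited table. Tdo2 at 0.157 ± 0.107 and Kmo at 0.131 ± 0.0419 were far lower and also not separable. In the tumor libraries Wars at 15.9 ± 0.459 and Kynu at 6.69 ± 0.367 still led.

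Haao at 5.02 ± 0.496 and Tdo2 at 3.26 ± 0.363 CPM per kilobase now stood above Afmid at 1.41 ± 0.0594, and Kmo was at 0.751 ± 0.285. Ido1, Ido2 and Il4i1 were the lowest in both groups, with means of at most 0.0686. The place of Il4i1 is uncertain, as 86.3% of its exonic bases are shared and reads in them may not have been counted. The rank of Haao rests on the gene length in the deposited table, 1222 bases. With the 4681 exonic bases of GENCODE M21 its control level would be 0.511 ± 0.176, below Afmid, and its tumor level 1.31 ± 0.129, within its spread of Afmid and below Tdo2. The level of Afmid per length would in turn be too low if reads in its shared exonic bases were not counted, so its place in the order is uncertain as well.

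**Figure D2:**
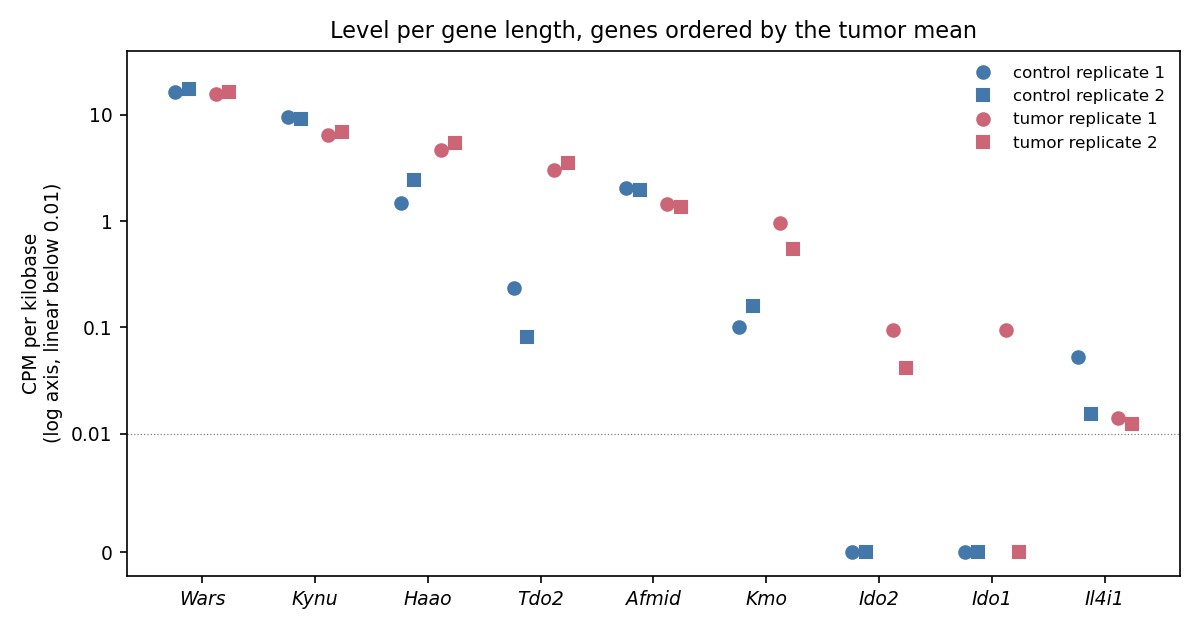
Level in CPM per kilobase of gene (vertical axis, logarithmic above 0.01 and linear below it) for the 9 genes, ordered by tumor mean; each point is 1 library. Tdo2 lies at 0.0815 and 0.233 in the controls and above Afmid in both tumor libraries, with a mean of 3.26.

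For the genes that rose, the sequence before the start site bears on the question of the series, since AHR binds DNA at a core of the letters GCGTG. RefSeq windows of 300 bases, 250 before and 50 after the start (GRCm38.p6), were at hand for 5 of the 9 genes, Tdo2, Kmo, Haao, Afmid and Il4i1, and not for Ido1, Ido2, Kynu and Wars. The core, searched on both strands, was found once in the Haao and once in the Tdo2 window and in none of the other 3. It is a common string, present in 32.4% of all 32851 windows. Each match is shown in 30 bases of the gene's own strand, with the core in capitals, as GCGTG in Haao and as its reverse complement CACGC in Tdo2.
Haao, chr17:83846910-83846939, minus strand: atccctgctccgGCGTGtgtgcaggggcag
Tdo2, chr3:81975905-81975934, minus strand: tagagggtttggCACGCcctgctagcaaac
The Haao match starts at position -137 and the Tdo2 match at -194 from the start site, counted as 0. The Haao bases lie in an exon of a retained-intron transcript alone, and the Tdo2 bases in the 5′ untranslated exon of longer GENCODE transcripts.

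The longer string TNGCGTG, which contains the core and was present in 5.07% of all windows, was in none of the 5. The paired STAT string TTCNNNGAA, in 8.30% of all windows, was in none of them either. A match or its absence describes only the letters of these windows.

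A list of 32 further genes of tryptophan transport, the kynurenine and serotonin branches and NAD synthesis was read beside the enzymes. Of these, 23 were tested, 11 were higher and 5 were lower, against the 29.0% and 24.8% of all tested genes. Some of the higher genes, such as Aadat, Ddc and Qprt, passed the filter on low counts through the tumor libraries, so the excess of rises is not read as a result. With 10 counts required in each library, 5 of 18 were higher and 5 lower, beside 3091 higher and 3426 lower of all 12279 genes. Under scaling on the AM markers 16 of the 23 were higher and 3 lower, with a median of 0.67. Of all 14256 genes 9952 were higher and 722 lower under that scaling, with a median of 0.51. Under TMM scaling the median log2 fold change of the 23 was 0.17, beside 0.02 for all genes. A further 5 were at the floor in all 4 libraries. Values given below for single genes are log2 fold changes from the edgeR fit, with the SE after ±.

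Among the aminotransferases that make kynurenic acid, Aadat had 0 counts in both controls and reached 10 and 12 with tumor. Its lower tumor value was at least 3.04-fold higher, taken against 3 counts in the shallower control library. Got2, a mitochondrial aspartate aminotransferase, rose by 0.12 ± 0.0523 with an edgeR adjusted p of 0.0496, just inside the threshold. With DESeq2 size factors in edgeR it was at 0.11 with an adjusted p of 0.0871, and the call was lost. The call of Got2 held with total counts as library sizes, at 0.19, and under scaling on the AM markers, at 0.62. Kyat1 at 0.19 and Kyat3 at 0.29 did not pass. In the late steps to NAD, Qprt, which converts quinolinate, had 6 and 2 counts in the controls and 18 and 22 in the tumor libraries, a log2 fold change of 2.20 ± 0.582 (SE). Nmnat1 at 0.12, Nadsyn1 at -0.01 and Nmnat3 at -0.37 did not pass. Kyat1, Kyat3, Nmnat1 and Nadsyn1 were called higher under scaling on the AM markers.

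The enzymes that salvage NAD from vitamin forms split. Naprt, which uses nicotinic acid, rose from 103 and 99 counts to 235 and 272, a log2 fold change of 1.23 ± 0.146 (SE). Nampt, which uses nicotinamide and was more abundant per length, had 5250 and 4145 counts in the controls and fell by 0.35 on the log2 scale (SE 0.0336), to 3688 and 4161 counts. Under scaling on the AM markers Nampt was instead higher by 0.14.

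Of 5 tested carriers of tryptophan and its relatives, 3 were lower and 2 were higher. The 2 chains of the main large neutral amino acid carrier did not move together, as Slc7a5 rose by 0.41 ± 0.0757 and its partner Slc3a2 fell by 0.59 on the log2 scale. Slc7a8, another partner of Slc3a2, fell by 0.86, and Slc16a10, an aromatic amino acid carrier, fell by 0.60. These 3 falls were smaller under scaling on the AM markers, at -0.09, -0.37 and -0.11, and stayed called. Slc36a4, a lysosomal tryptophan carrier, rose by 0.17.

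**Figure D3:**
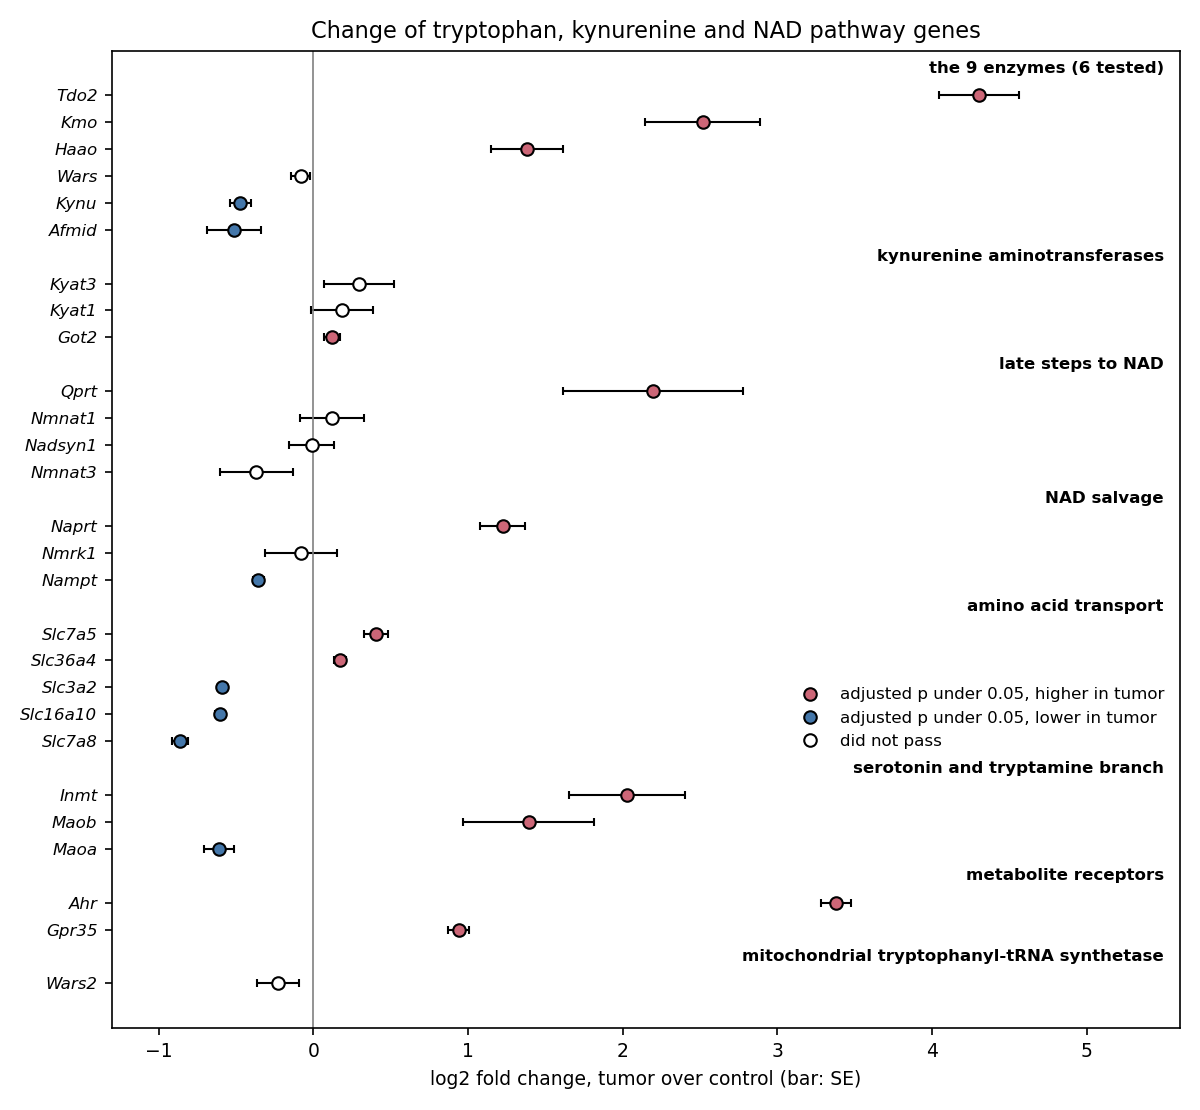
Log2 fold change, tumor over control (horizontal axis), with its SE, for 6 of the 9 enzymes and for 21 of the 23 tested genes of the wider pathway, grouped by role; red and blue mark an edgeR adjusted p under 0.05, white marks genes that did not pass, and Aadat and Ddc are left out because their controls were at the floor. Tdo2 at 4.30 and Ahr at 3.38 lie furthest to the right and Slc7a8 at -0.86 furthest to the left.

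In the serotonin and tryptamine branch, Tph1 and Tph2, whose products start serotonin synthesis, had at most 4 counts in any library. Ddc, the decarboxylase that follows them, had 1 and 2 counts in the controls and 13 in each tumor library, a ratio of 8.10 with a counting interval of 2.48 to 41.8. Inmt, an indole methyltransferase, rose by 2.03 ± 0.378 and Maob by 1.39 ± 0.424, whereas Maoa, the monoamine oxidase with more counts per length, fell by 0.61 on the log2 scale. Under scaling on the AM markers Maoa was at -0.11 with an adjusted p of 0.295, so this call depends on the scaling. The receptors of kynurenine metabolites were both higher. Ahr had 108 and 87 counts in the controls against 1013 and 1159, a log2 fold change of 3.38 ± 0.0983 (SE), and Gpr35, a receptor of kynurenic acid, rose by 0.94 ± 0.0690. Wars2, the mitochondrial counterpart of Wars, was at -0.23 and did not pass.

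Wars was set beside the other 19 cytosolic aminoacyl-tRNA synthetase genes, all of which were tested. Of these, 1 was higher and 9 were lower, beside 29.0% higher and 24.8% lower among all tested genes. Their median log2 fold change was -0.13, beside 0.02 for all genes. The range ran from -0.56 for Eprs and -0.37 for Hars to 0.32 for Cars, the only one called higher. Without control replicate 1, 0 were called higher and 7 lower, so the call of Cars was lost. Wars at -0.08 lay inside this range. Scaling on the AM markers, which shifts all genes upward alike, turned the split to 17 higher and 0 lower. Of all 14256 genes 9952 were higher under it. The family median was then 0.36, beside 0.51 for all genes. The sign of the family's change thus depends on the scaling, while its median lay under that of all genes in both.

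**Figure D4:**
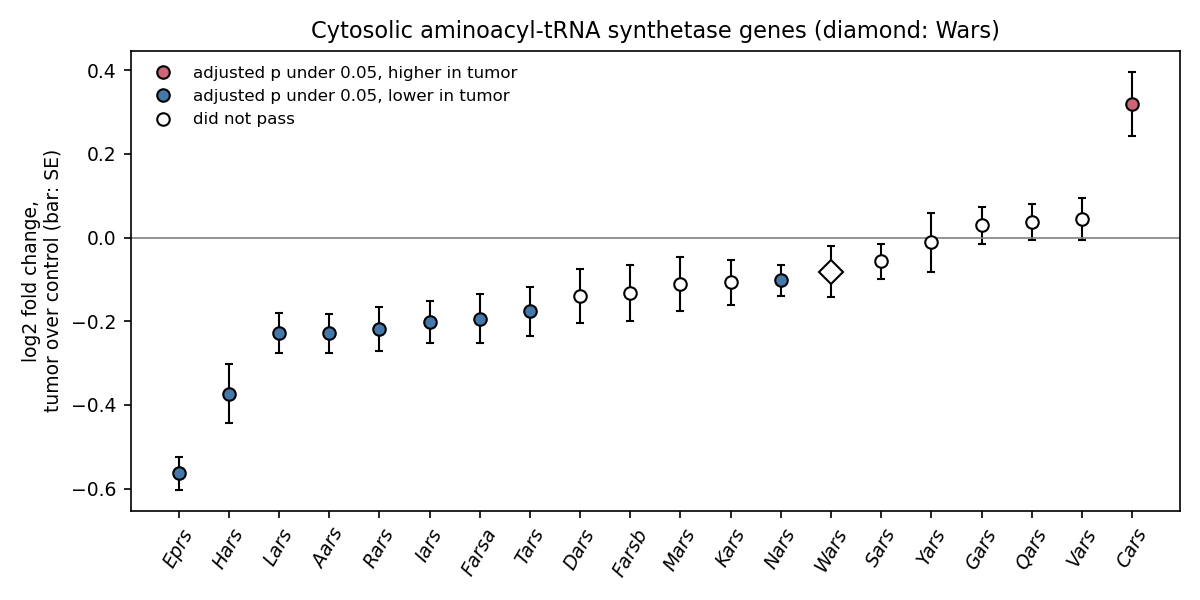
Log2 fold change, tumor over control (vertical axis), with its SE, for Wars (diamond) and the 19 other cytosolic aminoacyl-tRNA synthetase genes, in order of change under TMM scaling; colours mark an edgeR adjusted p under 0.05. Eprs at -0.56 and Cars at 0.32 lie at the ends and Wars at -0.08 between them. Under scaling on AM markers 17 of the 19 were higher, as were 9952 of all 14256 genes.

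Ido1 and Wars are known to be induced by interferon-gamma, Il4i1 is named for interleukin-4, and synthetase genes answer the ATF4 stress response, so 3 lists of such genes were read too. Their counts stand beside 29.0% higher and 24.8% lower among all tested genes, and their medians beside 0.02 for all genes. Of 14 interferon-gamma-induced genes, 7 were higher and 4 were lower, with a median of 0.27. Iigp1 at 3.45 and Gbp4 at 2.42, both interferon-induced GTPases, rose most, and the chemokine gene Cxcl10 at -1.56 and Gbp5 at -0.89 fell most. Iigp1 had 4 and 1 control counts and passed the filter on low counts through the tumor libraries. With 10 counts required in each library, 6 of 13 were higher and 4 lower. Under scaling on the AM markers 11 of this list were higher and 2 lower, beside 9952 higher and 722 lower of all 14256 genes. Of 10 interleukin-4-induced genes, 6 were higher and 3 were lower, with a median of 1.24. Ccl17 at 3.77 and Mgl2 at 3.41 rose most, and Mrc1 at -0.47 and Chil3 at -0.45, both abundant in AMs, fell most among those called. Ccl17 had 17 and 9 control counts, and with 10 counts required in each library 5 of 9 genes were higher and 3 lower. Under scaling on the AM markers 8 of these genes were higher and none of the 10 was called lower. Mrc1 and Chil3 are themselves among the 12 markers that set this scaling, so their move toward 0 is fixed by it. Of 9 tested stress response genes, 5 were higher and 0 lower, from Atf4 at 0.19 to Slc7a11 at 0.55, and all 9 were higher under that scaling. None of these lists was given a test of its own.

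The 3 enzymes that rose did so in libraries whose cell markers also differed. The hepatocyte list, given beside Tdo2, moved with Kmo and Haao as well. Of 6 kidney tubule markers, 5 had 0 counts in both controls, Kap and Slc22a6 had 0 counts throughout, and the sum was 0.160 to 0.253 CPM in the controls and 1.21 to 1.37 CPM in the tumor libraries. Most of that rise was Miox, the only 1 tested, with 18 counts in each tumor library. In both tumor libraries 4 of the 6 were at the floor.

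All 10 neutrophil markers were higher, with sums of 9.86 to 9.998 CPM in the controls and of 3747 to 3789 CPM in the tumor libraries. All 5 eosinophil markers were higher as well (0.633 to 0.639 against 2625 to 2665 CPM), and so were all 6 basophil and mast cell markers (2.02 to 2.29 against 522.4 to 528.6 CPM). Of 8 dendritic cell markers, 4 were higher and 2 were lower, and the sum rose from 16.7 to 17.2 CPM to 48.7 to 51.7 CPM.

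Other lists moved less than those of granulocytes. B cell genes were higher in 5 of 6 cases, with sums of 19.5 to 21.6 CPM in the controls and 43.0 to 45.6 CPM in the tumor libraries. T and NK cell genes were higher in 3 of 5 tested cases (3.04 to 4.24 against 11.2 to 11.6 CPM) and fibroblast and endothelial genes in 4 of 6 (6.14 to 7.78 against 26.6 to 28.6 CPM), with none lower. Monocyte and interstitial macrophage genes were higher in 2 and lower in 5 of 8 cases. Genes of lung or 4T1 epithelium were higher in 2 and lower in 4 of 7 tested. The same markers moved with the wider pathway genes and the interferon-gamma and interleukin-4 lists, Aadat, Qprt, Ddc, Inmt, Ahr, Ccl17 and Mgl2 included. The part of these cell types in the values of Tdo2, Kmo, Haao and those genes was not tested.

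**Figure D5:**
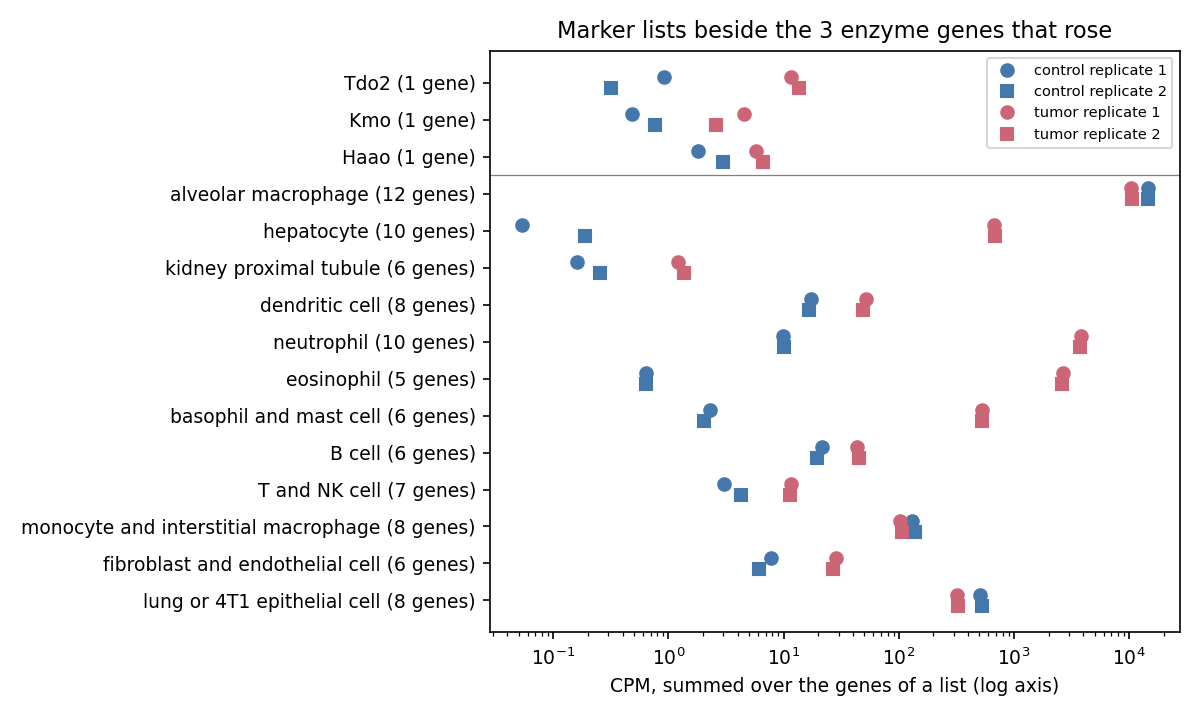
CPM of Tdo2, Kmo and Haao and, below the line, CPM summed over each list of cell type markers (horizontal axis, logarithmic) in the 4 libraries; blue is control, red is tumor. Hepatocyte, neutrophil, eosinophil and basophil sums lie more than 100-fold apart between groups, beside 19.8-fold for Tdo2, while the AM sum is lower in tumor.

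For each member that changed at least 2-fold, the 3 genes with the nearest pattern over the 4 libraries were listed, by distance of centred log2 CPM among 13860 genes. Gnmt (distance 0.234), Dnah14 and Pde7b lay nearest to Tdo2. Gnmt, which encodes a methyltransferase abundant in liver, had 11 and 4 counts in the controls and 148 and 192 in the tumor libraries. A like imbalance between the control libraries follows from the choice by nearest pattern and is not read as a result. Dnah14 had 2 and 0 control counts and Pde7b 4 and 1, at or near the floor. Amy1, Fam174b and Gm43721 lay nearest to Kmo at distances of 0.148, 0.262 and 0.263, and Tst, Pmm1 and Olfr1373 nearest to Haao at 0.113, 0.163 and 0.186. With 4 libraries in 2 groups such a distance mostly reflects the size of the change and describes these libraries only.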

How the data were processed

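AM libraries were prepared, per the labels, from TRIzol-extracted total RNA with a NEBNext Ultra kit. The authors aligned paired-end reads with HISAT2 2.0.5 and counted reads per gene with featureCounts, and the deposited values are raw counts per gene, not normalized. Build, annotation release, strandedness and the handling of shared reads are not given in the sources used here. Of the gene identifiers, 54409 were in GENCODE M21 (GRCm38), 98.3% of them with identical coordinates, as for 8 of the 9 members (Haao differed). The labels also name DESeq2.

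Groups came from sample titles. The quasi-likelihood test of edgeR 4.0.16 (R 4.3.3) was run on them after filterByExpr (minimum count 10) and TMM, on group alone. An SE is the log2 fold change over the root of its F statistic. Within pairs, log2 CPM (prior count 2) correlated at 0.994 and 0.992 across genes, and counts differed by more than counting noise. In simulated data (54532 genes, 14113 tested), 75.9%, 96.0% and 98.5% of 58, 75 and 67 genes changed 1.5-, 2- and 4-fold were recovered. All genes were drawn at 1 common dispersion (9.16e-04), and the changed genes only from those above a minimum mean count. In the data 53.8% of tested genes were called, and some members had few control counts. The simulation therefore does not show the recovery for such genes or for so many changes.

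Members and lists were chosen with earlier results of these data known. Named were all 9 members, wider pathway genes called at 2-fold or more with up to 3 others per role, the 2 largest rises and falls of other lists, and nearest patterns. Chosen after seeing their values were Slc7a5, Slc36a4, Tph1, Tph2, Apoa1, Kap, Slc22a6, Miox, Siglecf, Fabp4, S100a8 and the overlapping genes. Alternatives were DESeq2 size factors, total counts, AM marker scaling, other filters, DESeq2 1.42.0, limma-voom (limma 3.58.1), a 2-fold threshold, a replicate block and leaving out each library.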

Additional observations from a re-analysis of the deposited data

How the results depend on the processing

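Tdo2, Kmo and Haao kept their direction and call under every alternative in which they were tested, with log2 fold changes of 3.78 to 5.28, 2.07 to 3.01 and 1.04 to 1.87. Tdo2 and Kmo could not be tested under a filter of 10 counts in each of the 4 libraries, since 1 control library of each fell below it. Scaling on AM markers turned Kynu from -0.47 to 0.021 and Wars from -0.08 to 0.41. It also ended the call of Afmid, as did the DESeq2 Wald test and leaving out control replicate 1.

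The count of all genes called moved from 7671 to 2268 when a 2-fold change was required, and the 5 members, 16 wider pathway genes, 10 synthetase genes, 11 interferon-gamma-induced, 9 interleukin-4-induced and 5 stress response genes moved to 3, 7, 0, 5, 5 and 0. Under the stricter filter 3 members (1 higher, 2 lower) and 10 wider pathway genes (5 higher, 5 lower) were called, as fewer genes were tested. Scaling on AM markers gave 17 synthetase and 9 stress response genes and made 93.2% of all calls higher, against 53.9%. Total counts as library sizes gave 62.6% higher. Fits without 1 library, in which the lone library of a group is assumed to vary like the others, gave 4 to 5 members and 6515 to 7470 genes.

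With the replicate number as a block, 5 members and 7446 genes were called, and no member's call changed. Same-numbered libraries did not deviate together (correlation -0.00278), so the numbers were not taken as pairs. The level of Haao per kilobase moved from 5.02 to 1.31 with the GENCODE M21 length, an alternative chosen after seeing the data.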
